A study of Mus musculus with 12 samples.

Results

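The genes described here are 10 members of the ATF4 amino acid stress response: Atf4, Ddit3, Asns, Trib3, Chac1, Sesn2, Slc7a11, Slc3a2, Psat1 and Phgdh. They were picked by name from the 14496 genes of the deposited table, and all 10 were present and passed the filter on low values, which 14008 genes passed. RNA came from whole subcutaneous tumors grown in BALB/C mice from Renca, an established mouse renal carcinoma cell line, and taken at day 14. In the 6 tumors labelled IK1 to IK6 a second tumor grew in the kidney at the same time, and in the 6 labelled SC1 to SC6 no kidney tumor was present. The comparison asks how the subcutaneous tumor's transcriptome differs when a distant tumor is present. A library holds the RNA of a whole tumor, its stroma included, so fewer cells of a type and less RNA per cell cannot be told apart. Whether every tumor had its own mouse is not stated in the labels, and the p-values then cover no more than tumor-to-tumor spread, which may be technical.

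ATF4 is a bZIP transcription factor of the integrated stress response. Amino acid shortage, unfolded protein in the endoplasmic reticulum, heme lack or viral RNA each activate a kinase that phosphorylates the translation initiation factor eIF2. General protein synthesis then drops while the Atf4 mRNA, held back by upstream open reading frames, is translated better. The protein induces genes for amino acid synthesis, amino acid import and stress signalling. Because much of this control is translational, Atf4 mRNA need not follow ATF4 protein, which was not measured.

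Between 53312559 and 66142468 reads per tumor were recovered from the table. The least expressed member, Slc7a11, still had 860 reads in its lowest tumor, so that the spread between tumors and not counting error limits the precision. All 12 lymphocyte marker genes (such as Cd3e and Gzma) had a lower mean with a kidney tumor, and their mean level split the tumors into 6 low and 6 high ones with a gap of 1.24 log2 units. IK2 lay with the high tumors and SC6 with the low ones, against the other 5 of their group. The difference of each member is therefore also given without IK2 and without SC6, and without any other tumor that moved it by over 1.5 times. All 10 differences are larger without either of them, and since these 2 tumors were singled out by their position, the p-values without them describe the remaining tumors only. Of the epithelial and renal markers checked for the tumor cells, 9 of 10 were in the table, and their summed level was 3908 to 4239 CPM (reads scaled to library size) with a kidney tumor and 4002 to 4404 CPM alone.

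All 10 genes had a slightly higher mean in tumors with a kidney tumor, and none passed the test. The log2 differences ran from 0.02 for Asns to 0.26 for Trib3, with a median of 0.11 against 0.01 over all genes tested. By limma with Benjamini-Hochberg adjustment, 0 of the 10 genes passed an adjusted p of 0.05. Over all 14008 genes tested, 0 passed as well (0.00%), although 1608 genes had an unadjusted p under 0.05 (11.5%, of which 5.86% higher and 5.62% lower with a kidney tumor, with 0 members among them). A higher mean was found for 53.3% of all genes. The 10 members vary together across tumors, as given below, and are not 10 separate results. In none of them were the 2 groups apart without overlap, against 0.478% of all genes. The same test on limma voom weights called 0 genes.

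**Figure D1:**
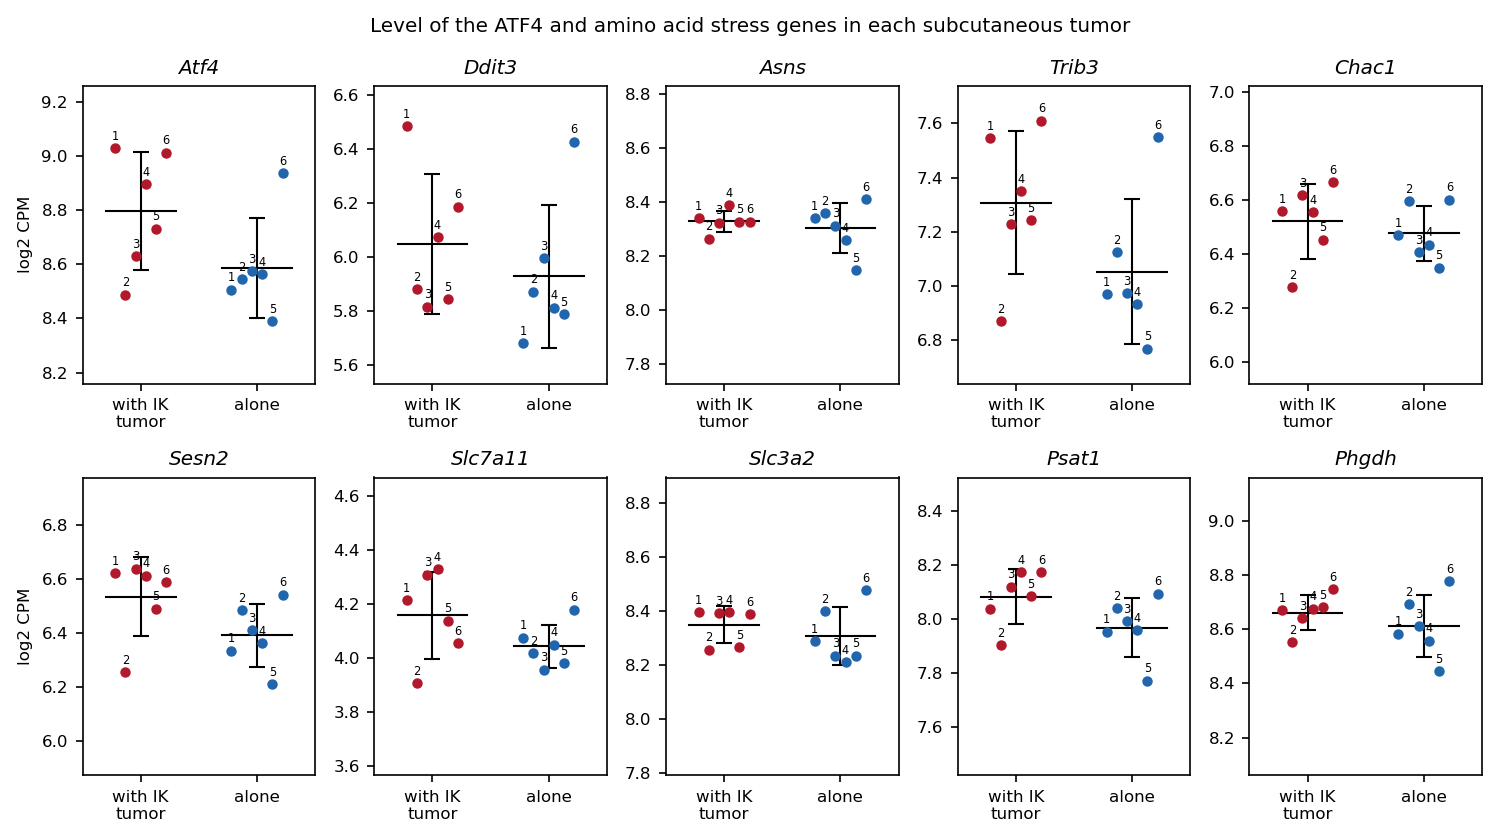
Level of each gene in every tumor as log2 CPM, with points numbered by replicate, horizontal lines for the group mean and bars for the SD (n = 6 each); every panel spans the same number of log2 units. The groups overlap for all 10 genes, and IK2, SC5 and SC6 often lie away from the rest of their group.

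The transcription factors come first. Atf4 had a lowest, median and highest level of 8.49, 8.81 and 9.03 log2 CPM with a kidney tumor and of 8.39, 8.55 and 8.94 alone. IK1, IK6, SC6 and IK4 were the 4 highest tumors and SC5 the lowest, and the ranges overlapped over most of their width. The difference was 0.21 ± 0.11 (SE; 95% interval -0.02 to 0.44; adjusted p = 0.452, limma), which is 15.8% higher with a kidney tumor. SC6, at 8.94, stood apart from the other 5 tumors grown alone, which lay between 8.39 and 8.57. Without SC6 the difference was 0.28 and without IK2 it was 0.27 (adjusted p = 0.196 and 0.125, limma).

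Ddit3 encodes CHOP, a bZIP factor that ATF4 induces and that takes part in stress-related cell death. Its lowest, median and highest levels were 5.82, 5.98 and 6.48 log2 CPM with a kidney tumor and 5.68, 5.84 and 6.43 alone. A single tumor of each group carried the top values, IK1 and SC6, and the other tumors of both groups lay between 5.68 and 6.19. The difference was 0.12 ± 0.14 (SE; 95% interval -0.18 to 0.41; adjusted p = 0.707, limma). Without SC6 it was 0.22 and without IK2 0.15, but without IK1 it was 0.03 and without SC1 0.07 (adjusted p = 0.278, 0.532, 0.936 and 0.876, limma). The end of Ddit3 overlaps the opposite-strand gene Mars by 68 bases in a newer annotation, and since it is not stated that strand was used in counting, reads there cannot be told apart. Mars, a tRNA synthetase gene, differed by 0.05. In the same annotation Ddit3 also overlaps a second same-strand protein-coding entry of the same name by 2925 bases. An opposite-strand transcript, Gm4189, overlaps it by 15 bases. Neither has a row in the table. Sesn2 and Slc7a11 overlap other transcripts, and Psat1 a pseudogene, that have no row in the table either.

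Stress signalling targets of ATF4 held the largest difference, that of Trib3, and also a small one, that of Chac1. Trib3, a pseudokinase that dampens ATF4 and AKT signalling, had a lowest, median and highest level of 6.87, 7.30 and 7.61 log2 CPM with a kidney tumor and of 6.77, 6.97 and 7.55 alone. IK6, SC6 and IK1 were highest, while SC5 and IK2 were lowest. Its difference of 0.26 ± 0.14 (SE; 95% interval -0.04 to 0.56; adjusted p = 0.467, limma) was the largest of the 10 genes, 19.4% higher with a kidney tumor. It was 0.34 without IK2 and 0.36 without SC6 (adjusted p = 0.127 and 0.196, limma).

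Sesn2 encodes Sestrin2, a leucine sensor that restrains the growth kinase complex mTORC1. It lay at 6.25, 6.60 and 6.64 log2 CPM (lowest, median, highest) with a kidney tumor and at 6.21, 6.39 and 6.54 alone. Here 4 of the 6 IK tumors were above every SC tumor, IK5 lay below SC6, and IK2 was below all SC tumors but SC5. The difference was 0.14 ± 0.07 (SE; 95% interval -0.01 to 0.30; adjusted p = 0.448, limma). It came to 0.20 without IK2 (adjusted p = 0.0758, limma), the smallest adjusted p that any member reached in the settings tried, and to 0.17 without SC6 (adjusted p = 0.212, limma).

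Chac1, an enzyme that breaks down glutathione, lay at 6.28, 6.56 and 6.66 log2 CPM with a kidney tumor and at 6.35, 6.45 and 6.60 alone (lowest, median, highest). IK2 was the lowest of all 12 tumors and IK6 the highest, so the IK range enclosed the SC range. Its difference was 0.05 ± 0.07 (SE; 95% interval -0.10 to 0.19; adjusted p = 0.769, limma). Without IK2 it was 0.09, without SC6 and without SC2 0.07 (adjusted p = 0.289, 0.556 and 0.655, limma). Without IK3 it came to 0.03, and without IK6 or SC5 to 0.02 (adjusted p = 0.885, 0.938 and 0.960, limma).

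The import genes code for both chains of a cystine transporter. Slc7a11 encodes xCT, the light chain that exchanges cystine for glutamate and feeds glutathione synthesis. Levels were 3.91, 4.18 and 4.33 log2 CPM with a kidney tumor and 3.96, 4.03 and 4.18 alone. IK4, IK3 and IK1 were above all SC tumors, and IK2 was below them all. The difference was 0.12 ± 0.07 (SE; 95% interval -0.04 to 0.27; adjusted p = 0.496, limma), with 0.17 without IK2 and 0.14 without SC6 (adjusted p = 0.131 and 0.276, limma). Slc3a2 encodes 4F2hc (CD98), the heavy chain that carries xCT and several other light chains to the cell surface. It lay at 8.26, 8.39 and 8.40 log2 CPM with a kidney tumor and at 8.21, 8.26 and 8.48 alone, with the highest value in SC6. Its difference was 0.04 ± 0.05 (SE; 95% interval -0.07 to 0.15; adjusted p = 0.716, limma). It was 0.08 without SC6 and 0.06 without IK2 (adjusted p = 0.325 and 0.481, limma), against 0.03 without SC3 or SC5 and 0.02 without SC4 (adjusted p = 0.831, 0.919 and 0.878, limma).

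Synthesis enzymes make up the rest. Psat1, which makes phosphoserine from the product of Phgdh, had levels of 7.90, 8.10 and 8.17 log2 CPM with a kidney tumor and of 7.77, 7.97 and 8.09 alone. IK4, IK6 and IK3 were above all SC tumors, while SC5 and IK2 were lowest. The difference was 0.11 ± 0.06 (SE; 95% interval -0.01 to 0.24; adjusted p = 0.454, limma), with 0.15 without IK2 and 0.14 without SC6 (adjusted p = 0.121 and 0.215, limma), and 0.07 without SC5 (adjusted p = 0.784, limma). Phgdh, the entry enzyme of serine synthesis, lay at 8.55, 8.67 and 8.75 log2 CPM with a kidney tumor and at 8.44, 8.60 and 8.78 alone. SC6 was the highest tumor and SC5 the lowest, so the SC range enclosed the IK range. Its difference was 0.05 ± 0.05 (SE; 95% interval -0.06 to 0.16; adjusted p = 0.671, limma). Without IK2 it was 0.07 and without SC6 0.08, while without IK6 it was 0.03 and without SC5 0.02 (adjusted p = 0.400, 0.308, 0.837 and 0.944, limma).

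Asns, which makes asparagine and is among the classical ATF4 targets, differed least. It lay at 8.26, 8.33 and 8.39 log2 CPM with a kidney tumor and at 8.15, 8.33 and 8.41 alone, again with SC6 highest and SC5 lowest. The difference was 0.02 ± 0.04 (SE; 95% interval -0.07 to 0.11; adjusted p = 0.811, limma), so the interval reaches a 1.08-fold higher level with a kidney tumor. It was 0.04 both without IK2 and without SC6, and 0.01 both without IK4 and without SC4 (adjusted p = 0.621, 0.528, 0.939 and 0.907, limma). Without SC5 it turned to -0.01 (adjusted p = 0.965, limma).

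**Figure D2:**
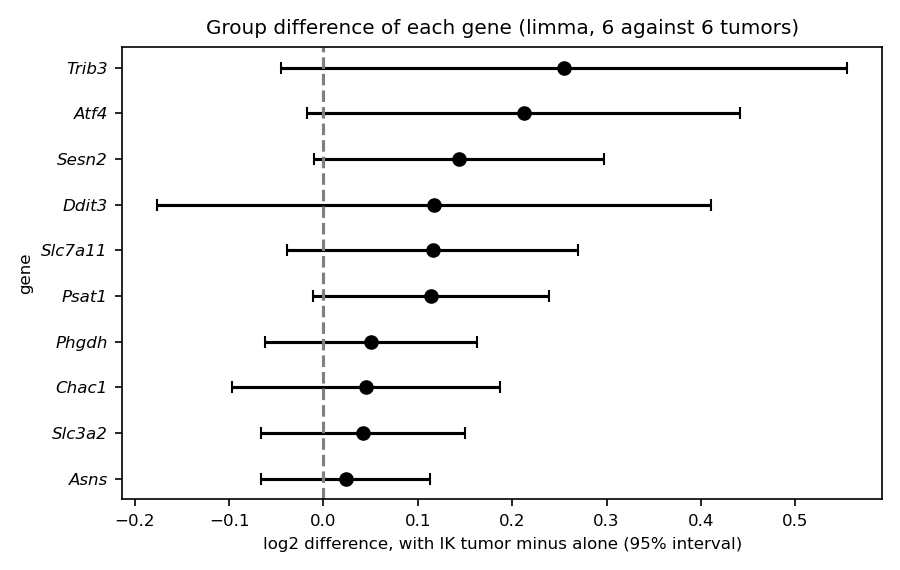
Difference in log2 CPM between tumors with a kidney tumor and tumors alone (points) with 95% intervals from limma (bars), 6 against 6 tumors. All 10 points lie above 0, from 0.02 for Asns to 0.26 for Trib3, and every interval includes 0.

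ATF4 binds composite C/EBP-ATF sites, whose letters are often written as TGATGNAA. This motif was searched on both strands in RefSeq promoter windows (GRCm38.p6, from 250 bases before to 50 bases after a gene's start), which were found for all 10 genes, with 2 windows for Psat1. It occurred in the windows of 4 genes: Asns, Slc7a11, Chac1 and Trib3. Of all 32851 windows, 3.97% held it, and 0.07% held it more than once, as the Slc7a11 window did with copies on both strands. The stretches around the matches are given for these 4 genes. The stretches read 5′ to 3′ in the direction of the gene, with the motif or its reverse complement in capitals. Whether the motif has a part in the levels of the 10 genes was not tested.
Asns, chr6:7693210-7693262, minus strand: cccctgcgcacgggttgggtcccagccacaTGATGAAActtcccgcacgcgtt
Slc7a11, chr3:50443623-50443709, minus strand: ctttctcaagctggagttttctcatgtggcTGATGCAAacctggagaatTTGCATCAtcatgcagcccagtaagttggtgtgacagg
Chac1, chr2:119351019-119351086, plus strand: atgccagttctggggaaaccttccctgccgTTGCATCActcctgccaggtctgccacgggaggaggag
Trib3, chr2:152344028-152344057, minus strand: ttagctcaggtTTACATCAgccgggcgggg
Counted from the gene's start, the match begins at base -23 for Asns, at -66 and -47 for Slc7a11, at -193 for Chac1 and at 15 for Trib3. A match in letters is a description and does not show binding. The 4 genes held the smallest and the largest difference of the 10, 0.02 for Asns and 0.26 for Trib3. Atf4, Ddit3, Sesn2, Slc3a2, Psat1 and Phgdh had no match in these windows, which says only that these letters are not there.

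Across tumors the members went up and down together. Tumor SC5 was among the 3 lowest of the 12 for 10 of 10 genes and IK2 for 8, and neither was among the 3 highest for any. SC6 was among the 3 highest for 7 genes, IK6 for 6, and IK1 and IK4 for 5 each. The distance from the lowest to the highest tumor was 0.84 log2 units for Trib3 (1.79-fold), 0.80 for Ddit3 (1.74-fold) and 0.64 for Atf4 (1.56-fold), but 0.26 for Asns (1.20-fold) and 0.27 for Slc3a2 (1.20-fold). Residual SDs within the groups were 0.27, 0.26 and 0.20 for Trib3, Ddit3 and Atf4, against a median of 0.11 over all genes tested. Asns, at 0.07, varied less than most genes, with only 19.2% of them below it. The factors and Trib3 thus spread most, and the enzymes and Slc3a2 least.

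**Figure D3:**
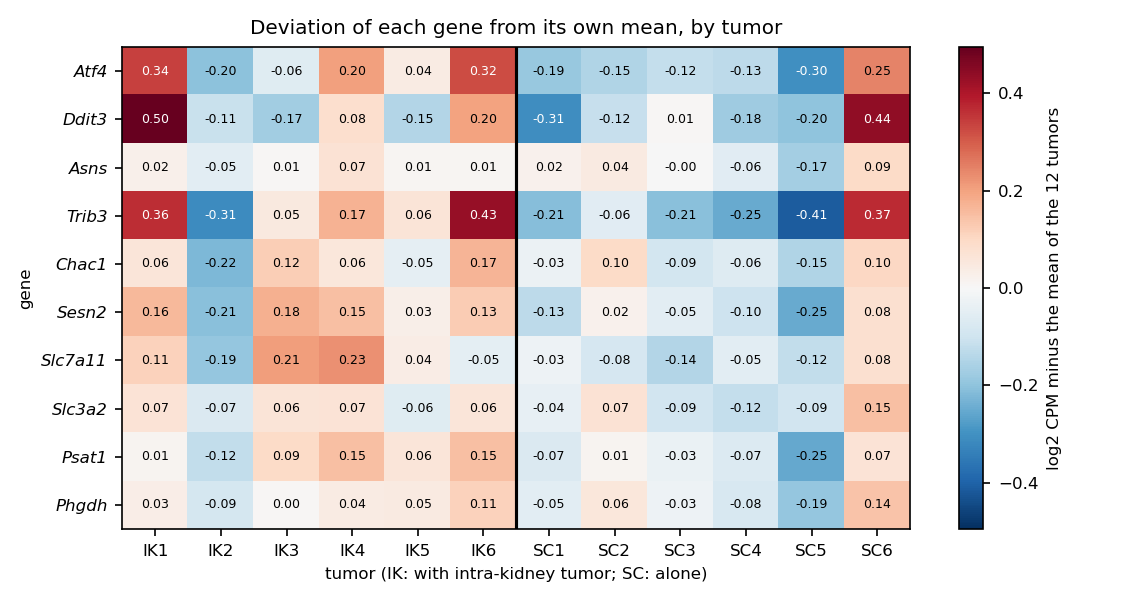
Log2 CPM of each gene (rows) in each tumor (columns) minus that gene's mean over the 12 tumors, with IK1 to IK6 left of the line and SC1 to SC6 right of it. IK2 and SC5 are mostly blue and IK1, IK4, IK6 and SC6 mostly red, with the deepest colors for Trib3, Ddit3 and Atf4.

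All 45 pairs of members correlated positively over the 12 tumors, and 37 passed a permutation test at an adjusted p of 0.05 (100000 permutations, two-sided, adjusted over the 45 pairs). Pearson's r ran from 0.34 for Ddit3 and Slc7a11 to 0.96 for Atf4 and Trib3, with a median of 0.77 (Spearman 0.69). By Spearman's rho 34 of the 45 pairs passed the same test. Within each group the sign was positive for 45 of 45 pairs, with a median r of 0.70 in the IK tumors and 0.83 in the SC tumors (n = 6 each), so that the sign does not rest on the difference between the groups. Leaving out the 2 tumors farthest from the median of the first gene of a pair gave a median r of 0.72, and 0.11 for the weakest pair. Many genes of the table go together in these tumors. A member's median r with the other members was matched or exceeded by 3.86% of all genes with a symbol for Slc3a2, the lowest share of the 10, and by 15.0% for Slc7a11, the highest. These shares are a description, since the genes share libraries.

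Atf4 and Trib3 formed the closest pair (r = 0.96, Spearman rho 0.94; permutation p = 1e-05, the smallest that this number of permutations can give; adjusted p = 0.00045), at r = 0.96 within each group and 0.94 without IK1 and IK6. Atf4 and Ddit3 followed each other as well (r = 0.86, rho 0.78, permutation adjusted p = 0.00225, and 0.79 without IK1 and IK6). Sesn2 went closest with Psat1 (r = 0.92, rho 0.86, permutation adjusted p = 0.0006, and 0.84 without IK2 and SC5). Psat1 and Phgdh, neighbouring steps of serine synthesis, had r = 0.88 (rho 0.81, permutation adjusted p = 0.00198, and 0.73 without IK2 and SC5). The chains of the cystine transporter, Slc7a11 and Slc3a2, had r = 0.63 (rho 0.62, permutation adjusted p = 0.0394, and 0.59 without IK3 and IK4). Ddit3 went least with the others: 4 of its 9 pairs lay at r = 0.50 or below, with Asns, Psat1, Chac1 and Slc7a11. Those did not pass (permutation adjusted p = 0.112 to 0.278), nor did its pair with Sesn2 (r = 0.59, permutation adjusted p = 0.0537). The other pairs that did not pass were those of Slc7a11 with Atf4, Asns and Phgdh. They had r = 0.59, 0.56 and 0.48 (permutation adjusted p = 0.0537, 0.0587 and 0.123).

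**Figure D4:**
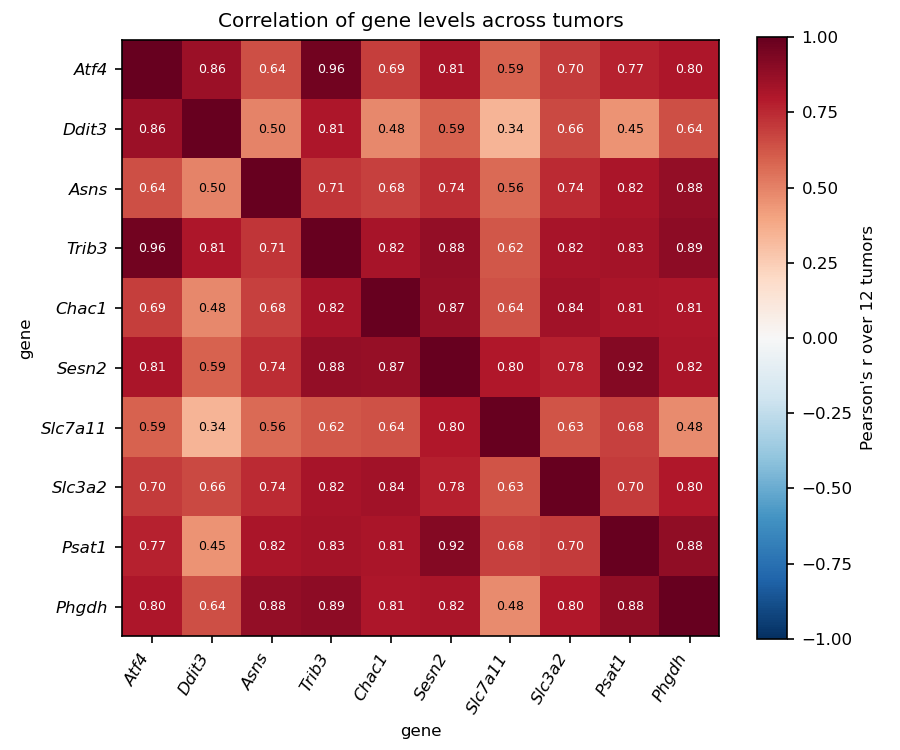
Pearson's r between the log2 CPM of each pair of genes over 12 tumors (color and printed value). All 45 pairs are positive, with the palest cells for Ddit3 and Slc7a11 and the darkest for Atf4 and Trib3.

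Markers of other cells moved against the members. For each tumor a marker level was taken as the mean log2 CPM of a list of cell type genes, and each of the 10 members was set against 7 measures, sequencing depth and proliferation genes among them (70 pairs, permutation test adjusted over them). With 10 macrophage and leukocyte genes, 10 of 10 members correlated negatively and 9 passed (median r = -0.84, permutation test; -0.82 in the IK and -0.87 in the SC tumors, and -0.78 without IK2 and SC5, the farthest tumors). Over all genes tested, those of the score left out, 56.0% correlated negatively with it, and 9.02% did so at least as closely as the weakest member that passed (r = -0.78). Sesn2 had r = -0.91 there (rho -0.83, permutation adjusted p = 0.00108, and -0.82 without IK2 and SC5). Fibroblast genes gave a median r of -0.85 (9 of 10 passed, permutation test), endothelial genes -0.76 (9 of 10) and fat cell genes -0.69 (6 of 10). The shares of all genes at least as close as the weakest member that passed were 16.3%, 14.9% and 8.38%. Without the 2 farthest tumors of each score, the 3 medians were -0.78, -0.67 and -0.64. With endothelial genes, Asns went from r = -0.71 to -0.33 without SC5 and SC6. By Spearman's rho, Asns, Chac1 and Slc3a2 did not pass there (permutation adjusted p = 0.0648, 0.0726 and 0.0806). Markers of epithelial and renal tumor cells gave a median r of 0.38, with 0 of 10 passing (smallest unadjusted permutation p = 0.0401, for Chac1). Within the IK and SC tumors the median was 0.53 and 0.64. Sequencing depth gave -0.19 with 0 of 10 passing, and its median was 0.21 within the IK tumors and -0.62 within the SC tumors. Proliferation genes correlated positively with 10 of 10 members, of which 8 passed (median r = 0.71, permutation test), while 21.3% of all genes were at least as close as the weakest of those 8 (r = 0.64). The closest was Psat1 at r = 0.93 (rho 0.94, permutation adjusted p = 0.000233, and 0.96 without IK3 and SC5). Proliferation genes themselves had a higher mean with a kidney tumor in 10 of 10 cases (median 0.11, 0 called by limma). The part of each cell type or of proliferation in the members' levels was not tested.

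**Figure D5:**
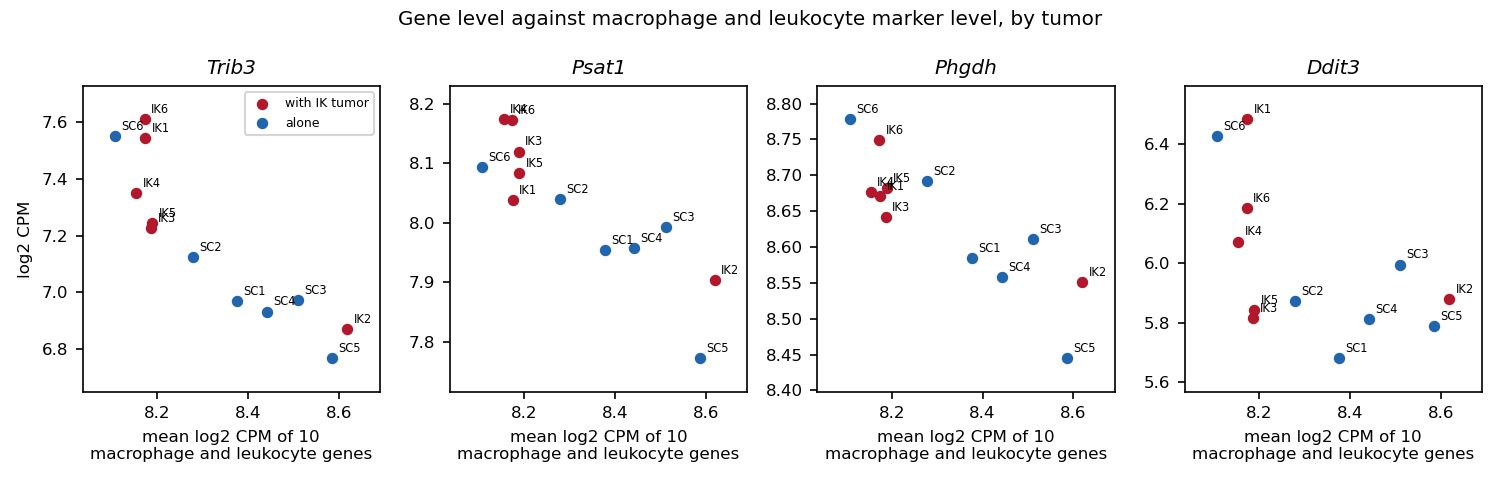
Log2 CPM of Trib3, Psat1, Phgdh and Ddit3 (vertical axes, scaled per panel) against the mean log2 CPM of 10 macrophage and leukocyte genes (horizontal axis), with 1 point per tumor. IK2 lies at the right with the SC tumors and SC6 at the left with the IK tumors; r is -0.90 for Trib3, -0.88 for Psat1, -0.87 for Phgdh and -0.55 for Ddit3.

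Summed over their lists, macrophage and leukocyte genes stood at 4035 to 5557 CPM with a kidney tumor and 3840 to 5312 CPM alone. Fibroblast genes stood at 4666 to 12304 and 4815 to 15677 CPM, lymphocyte genes at 14.7 to 123 and 23.7 to 146 CPM, and endothelial genes at 186 to 256 and 180 to 309 CPM. Fat cell genes stood at 6.66 to 28.5 and 10.99 to 51.5 CPM, and skeletal muscle genes at 45.4 to 225 and 3.88 to 496 CPM, with SC6 the lowest. None of the markers in the table was at 0 reads in any tumor. Lower means with a kidney tumor were found for 9 of 10 macrophage and leukocyte genes, 7 of 8 fibroblast and 6 of 6 endothelial genes. The same held for 4 of 4 tested fat cell genes and for 8 of 9 epithelial and renal tumor cell genes (median -0.06). Of all these, 0 passed over all genes (limma, Benjamini-Hochberg). A higher mean was found for 53.3% of all genes tested.

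Lymphocyte, muscle and hypoxia levels split the tumors into separate sets, so r was taken only within sets of at least 6 tumors (40 pairs, adjusted together). In the 6 tumors of low lymphocyte level the members had no common direction (median r = -0.07, 6 of 10 negative, 1 passing, exact permutation). In the 6 of high level 9 of 10 were negative (median r = -0.78), and 2 passed, Trib3 at r = -0.87 and Psat1 at -0.85 (exact permutation adjusted p = 0.0485 for both). Psat1 was also the member that passed in the low set (r = -0.91, exact permutation adjusted p = 0.0485). Of all genes, 4.94% in the high set were at least as close as Psat1 there, as were 4 members, and 0.807% in the low set. Among the 10 tumors of lower hypoxia level, which leaves out IK1 and IK6, all 10 members correlated positively (median r = 0.73) and 5 passed (permutation test). Of all genes 55.1% were positive there, and 7.20% at least as close as the weakest of the 5. The closest was Atf4 (r = 0.92, rho 0.89, permutation adjusted p = 0.0243), followed by Trib3 (r = 0.85) and Ddit3 (r = 0.82). Hypoxia genes had a higher mean with a kidney tumor in 10 of the 11 genes tested, such as Adm, a vasodilating peptide gene, at 1.25 and the glucose transporter Slc2a1 at 0.71 (adjusted p = 0.432 for both, limma). With muscle genes, over the 11 tumors other than SC6, 10 of 10 members were negative and 5 passed (median r = -0.69, permutation test), with 54.2% of all genes negative and 11.2% at least as close as the weakest of the 5. The part of lymphocytes, muscle or hypoxia in the members' levels was not tested.

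Other genes of the pathway were read from 10 lists with 129 genes tested. By limma, 0 of the 129 passed an adjusted p of 0.05, and 12 had an unadjusted p under 0.05, against 11.5% of all genes. The counts of higher or lower means given for each list lie beside 53.3% of all genes with a higher mean. Among kinases, subunits and phosphatases around eIF2, 11 of 16 had a higher mean, with a median difference of 0.01. The amino acid sensing kinase Eif2ak4 (GCN2) lay at -0.09 and the endoplasmic reticulum stress kinase Eif2ak3 (PERK) at 0.01, which turned negative without any of 5 single tumors. Ppp1r15a (GADD34), the stress-induced phosphatase subunit that reverses eIF2 phosphorylation, lay at 0.14, and its constitutive relative Ppp1r15b at 0.11. Of partner and downstream factors 9 of 12 were higher (median 0.07), with Atf3 at 0.28, Nfe2l2 (NRF2) at 0.12, Jdp2 at 0.09 and Atf5 at 0.03. Atf3 lay between 5.72 and 6.44 log2 CPM with a kidney tumor and between 5.45 and 6.07 alone, with IK1 highest.

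Serine and one-carbon genes next to Phgdh and Psat1 were higher in 8 of 10 tested cases (median 0.08). Psph, which releases free serine in the last step, lay at 0.08, the mitochondrial enzymes Shmt2 and Mthfd2 at 0.07 and 0.12, and Mthfd1l at 0.19. For Mthfd1l 5 of 6 IK tumors were above the SC median, with IK2 the exception (adjusted p = 0.432, limma). Other amino acid enzymes were higher in 8 of 12 (median 0.02), with Cth of cysteine synthesis at 0.18 and Ass1 of arginine synthesis at -0.62. Ass1 had 2.63 to 2.86 log2 CPM in 5 IK tumors and 4.25 in IK2, against 2.63 to 4.69 alone (adjusted p = 0.464, limma).

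Amino acid transporters had a lower mean in 7 of 12 cases, with a median of -0.03, while 53.3% of all genes had a higher mean. Slc7a8 (LAT2) lay at -0.28 ± 0.10 (SE; adjusted p = 0.432, limma), while Slc7a5 (LAT1) lay at 0.08 and the cationic transporter Slc7a1 at 0.09. Both LAT1 and LAT2 use the Slc3a2 chain. Of the 20 cytosolic aminoacyl-tRNA synthetases, which charge tRNAs with amino acids, 16 were higher by a median of 0.05, with Dars at 0.13 and Hars at 0.08. Secreted and surface products were higher in 5 of 7 (median 0.09), with the lipoprotein receptor gene Vldlr at 0.29 and the secreted glycoprotein gene Stc2 at -0.90 ± 0.26 (SE; adjusted p = 0.432, limma). Stc2 lay between -0.99 and 0.03 log2 CPM with a kidney tumor and between -0.05 and 1.37 alone, near the filter.

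Endoplasmic reticulum chaperones and the XBP1 and ATF6 branches of the unfolded protein response had lower means in 13 of 18 genes, with a median of -0.03. The chaperone Hspa5 (BiP) lay at -0.05 (0.02 with quantile normalization), Calr at -0.13, Creld2 at -0.13 and the factor Xbp1 at -0.01 (0.01 with median centring). NRF2 antioxidant genes, a set that shares Slc7a11 as a known target, were higher in 9 of 10 (median 0.08), with Slc48a1 at 0.09 and Gsr at 0.08. The mTORC1 and GATOR sensors that Sesn2 belongs to were higher in 7 of 12 (median 0.03), with Rragc at 0.08 and Nprl3 at -0.11. The medians of these lists lie beside 0.11 for the 10 members and 0.01 for all genes, and the lists were not tested against each other.

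Levels between members can be compared only per length of transcript. Per kilobase of annotated exons, Atf4 was highest at a mean of 7.45 log2 CPM per kb, followed by Phgdh (7.32), Asns (6.86), Slc3a2 (6.51), Trib3 (6.09), Psat1 (5.94), Chac1 (5.79), Ddit3 (5.21), Sesn2 (4.67) and Slc7a11 (0.30). Exon lengths are from a newer annotation and include all transcripts, which makes the value of Slc7a11, with 13.9 kb, a low estimate where its long forms are not used. Neighbours in this order were apart in all 12 tumors except Atf4 over Phgdh (10 of 12) and Trib3 over Psat1 (8 of 12). For these the mean differences were 0.13 and 0.16 log2 CPM per kb, with SDs between tumors of 0.16 and 0.20. The order was not tested.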

How the data were processed

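Per the labels' protocols, a Qiagen RNeasy kit gave total RNA and an Illumina TruSeq RNA kit the libraries. TopHat 1.4.1, CASAVA 1.8.2, limma, HTSeq and the build mm9 are listed in the submitters' processing notes. Settings, strand handling and annotation release are not given in the sources used here. The authors deposited log2 values for 14496 genes. They have the form of log2 CPM with 0.5 reads added: in every tumor 100% of values were whole reads plus 0.5, within 0.001 of a read, which gave the depths. The CPM of a tumor summed to between 991392 (IK3) and 1.01577e+06 (IK2), so the library sizes behind them were not simply the recovered reads. Every deposited gene reached a log2 value of 0 in at least 2 tumors. Symbols were matched by identifier to GENCODE M21 (14004 matched, 492 did not). Coordinates are printed only for RefSeq promoters, in GRCm38.p6.

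Genes reaching a log2 CPM of 0 in 6 or more tumors entered a linear model of limma 3.58.1 under R 4.3.3 (variance trend, two-sided, Benjamini-Hochberg over all 14008 genes, threshold 0.05), without further scaling or pseudocount. Differences are IK minus SC. Permutation tests used 100000 resamples, or all orders for 6 tumors. Within groups, all 30 tumor pairs differed beyond sampling noise (lowest chi-square 13.2 and highest 164, each divided by its degrees of freedom). The members and lists were chosen with earlier results of these data known. Named were all members, the 2 genes of smallest p of each list, 11 fixed neighbours of the members (such as Hspa5), and 5 genes of most similar pattern for each of Ddit3, Asns and Trib3. Other genes' values (Mars, list ranges) were picked after seeing the data.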

Additional observations from a re-analysis of the deposited data

Results flagged for a closer look

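In groups of 6 tumors, a gene is given here when its highest or lowest tumor was separated from the rest by an unusually large part of the group's range. Chance alone gives about 1 in 20 groups, and 114 groups of 6 were examined, of which 13 met the rule. Among the 10 members this held once, for Atf4 in SC6 (8.94 log2 CPM, the other 5 SC tumors at 8.39 to 8.57). SC6 was also high for Slc2a1 (6.19, others 5.32 to 5.61) and low for Calr (10.35, others 10.57 to 10.66), Atp2a1 (-1.25, others 3.21 to 5.51) and Mylpf (-0.51, others 3.68 to 5.26). IK2 was high for Ass1 (4.25, others 2.63 to 2.86), Calr (10.63, others 10.34 to 10.44), Xbp1 (7.53, others 7.36 to 7.42), Gzma (3.98, others -0.15 to 1.06), Ptprc (7.91, others 6.96 to 7.30) and C1qc (8.96, others 8.26 to 8.41), and low for Slc48a1 (8.33, others 8.43 to 8.49). SC5 was low for Nfe2l2 (7.52, others 7.68 to 7.76).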

How the results depend on the processing

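Of the settings tried (no filter, a filter in all 12 tumors, quantile and median scaling, a robust variance model without trend, voom on recovered reads, a replicate block, and each tumor left out), 0 of the 10 members and 0 of the 129 pathway genes were called in any (limma). All members kept a higher mean except Asns without SC5 (-0.007814, and up to 0.0447 without SC6). The count of members with a higher mean was therefore 9 to 10. The members' median of 0.11 was 0.08 without IK1 and 0.15 without IK2. Members at an unadjusted p under 0.05 (limma) numbered 5 without IK2, 4 without SC6, 2 with the replicate block, 1 with quantile scaling, 1 without IK3 and 0 otherwise. Calls over all genes were 1 with the robust model without trend, and 0 to 171 with single tumors left out, 171 being without IK2.

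Replicate numbers were checked as a possible pairing. Same-numbered tumors deviated together at -0.31 to 0.45, and only for number 6 was the partner of the same number the closest. SC6 was also the closest partner of IK1, IK3 and IK4, so this check cannot decide whether same-numbered tumors share a batch. With the replicate block Atf4 lay at 0.21 (limma unadjusted p = 0.0269, adjusted p = 0.439). Trib3 lay at 0.26 (limma unadjusted p = 0.0416, adjusted p = 0.446), and 0 genes were called.

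Reversals among other genes were Eif2ak3 without IK1, IK3, IK5, SC4 or SC5 (-0.004595, -0.001673, -0.005462, -0.007895 and -0.006138, up to 0.0355 without IK6), Atf5 without IK6 or SC5 (-0.007752 and -0.0248, up to 0.0979 without SC6), Hspa5 with quantile scaling (0.0216), Xbp1 with median centring (0.006672) or without IK6 (0.004978, down to -0.0290 without IK2), and Mylpf without SC6 (-0.457, up to 0.697 without SC5). Among the genes named by rule, Cd5 (-2.04), Gzma (-2.62) and Bub1 (0.32) passed without IK2 (limma). Other genes of their lists were not read out under that setting. The cause was not tested.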

Other observations

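The genes most like 3 of the members in level across the 12 tumors were listed among all tested genes with a symbol, the other members left out. For Trib3 they were Adm2 (r = 0.98), Clcn3 (0.98), Asna1 (0.97), Ndrg1 (0.97) and Aldh1l2 (0.97). After each group was centred on its own mean, these values were 0.96 to 0.97. Adm2 and Aldh1l2 are on the pathway lists used here, with differences of 0.22 and 0.28 between the groups, and Ndrg1 is on the hypoxia list, with 0.27. For Asns the closest were Rtn3 (r = 0.95), Gnpnat1 (0.95), Ankrd33b (0.94), Enpep (0.94) and Cxadr (0.94). For Ddit3 they were Smim20 (r = 0.95), Prmt2 (0.92), Tex264 (0.90), Tecpr1 (0.90) and Metrnl (0.90). The 3 lists of 5 share no gene. They were picked as the highest correlations among all tested genes and are given with no test.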
